A study of Equus caballus with 22 samples.

Results

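SLC5A1, SLC2A4 and SLC2A5 are 3 sugar transporter genes whose transcripts were measured in the uterine lining (endometrium) of warmblood mares at day 8 and day 12 of early pregnancy. They are 3 of 675 genes that can be named on the array. Their probes were all the probes on the array that carry a horse RefSeq transcript accession of 1 of these genes, which gave 4 probes of 43603 (1 for SLC5A1, A_69_P000906 on NM_001081872; 1 for SLC2A4, A_69_P000946 on NM_001081866; and 2 for SLC2A5, A_69_P000796 and A_69_P000797 on NM_001081877). The arrays were Agilent horse arrays read in a single colour. Samples were whole biopsies from mares that had conceived and had their embryo recovered, and from the same mares at the corresponding stage without pregnancy. There were 6 mares at day 12 (6 pregnant and 6 non-pregnant samples, numbered 1 to 6) and 5 mares at day 8 (5 and 5 samples, numbered 1, 2, 4, 5 and 6), so 22 arrays in all. All animals were warmbloods, and the labels give no age, no treatment and no statement that a mare number on day 8 and on day 12 is the same animal.

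Sugars do not cross cell membranes unaided. The SLC5A1 protein, SGLT1, carries glucose and galactose into cells together with sodium and can work against a glucose gradient. The SLC2A4 protein, GLUT4, is the facilitative glucose carrier that insulin moves from internal vesicles to the cell surface, known best from muscle and fat, and the SLC2A5 protein, GLUT5, is a facilitative carrier for fructose. Before it attaches, the horse embryo lives free in the uterus and takes its nutrients from the secretions of the endometrium.

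Levels were the log2 intensity of a spot minus the log2 of the 75th percentile of its own array, so 0 is a spot at that percentile, and a level is comparable between arrays for 1 probe but not between probes. The 75th percentile lay between 577 and 1863 intensity units over the arrays, and 74.2 to 92.9% of spots were well above background; both ranges overlapped between the days. All 4 probes were well above background on 22 of 22 arrays, with no saturated or outlying spot. The dimmest of their spots, of SLC2A5, had an intensity of 38.5. The single dimmest probe well above background on each array had 2.18 to 7.54, an extreme value that sets no working floor. Each slide and each scan day held samples of 1 day only (4 slides and 3 scan days at day 12, 3 and 2 at day 8). The spot intensities of the 2 days were extracted with different software versions, so day and these steps cannot be told apart. Of the markers that define tissues, those of epithelium (ESRP1) and stroma (DCN and LUM) were well above background on 22 of 22 arrays, as were the smooth muscle marker TAGLN and the slow muscle myosin MYH7. The muscle myosins MYH1 and MYH2 were so on at most 4 and 3 arrays.

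SLC2A4 and SLC2A5 were lower in the day 12 samples than in the day 8 samples, by 2.12-fold and 2.53-fold without pregnancy and by 2.08-fold and 2.90-fold with pregnancy. Of all probes tested, 4.62% without and 13.1% with pregnancy passed the test as lower at day 12. SLC5A1 varied as widely within each group as between them. Within mares, no change of the 3 genes between the pregnant and the non-pregnant sample passed the test at either day. In whole biopsies, fewer cells of a type that carries a transcript and less of that transcript per cell cannot be told apart.

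**Figure D1:**
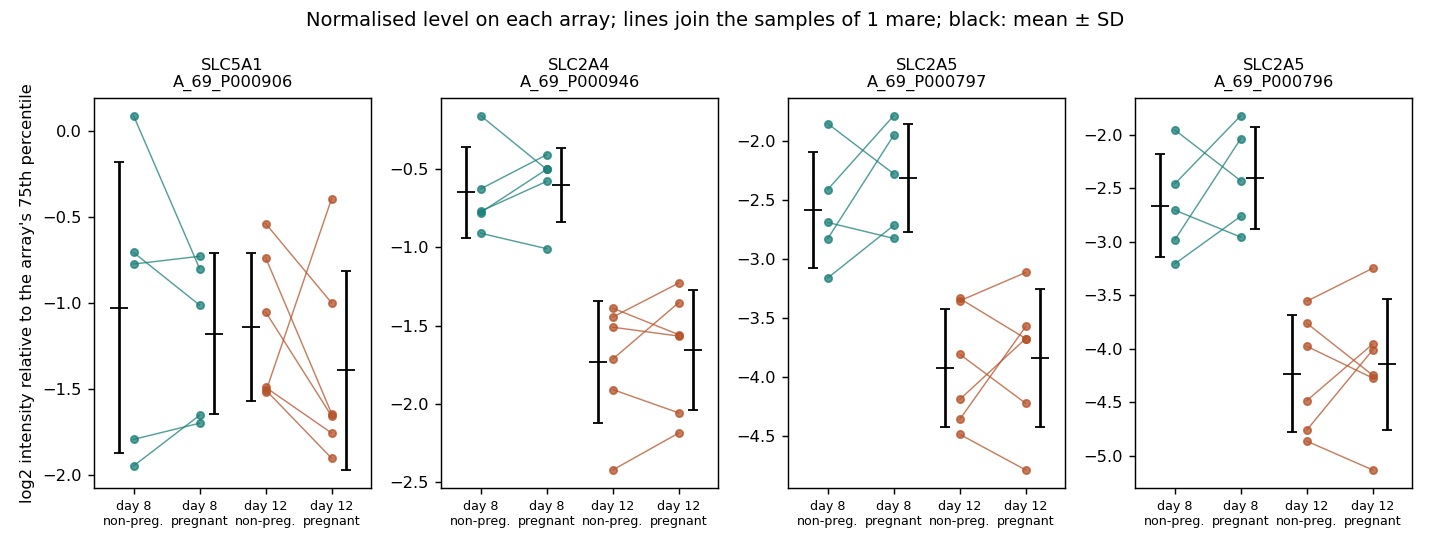
Normalised level (y axis, log2 intensity relative to the array's 75th percentile, 1 scale per panel) of each probe on each of the 22 arrays, by day and pregnancy (x axis); lines join the samples of 1 mare, and black bars give the group mean ± SD. The day 12 points of SLC2A4 and SLC2A5 lie below the day 8 points of the same pregnancy state, whereas those of SLC5A1 overlap in all 4 groups.

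The first question was whether a sugar transporter changed with pregnancy, which the pairs of samples from 1 mare answer directly. The carrier with the widest scatter within mares was SLC5A1. At day 12 its level ran from -1.52 to -0.54 without pregnancy, with a median of -1.27 (mean -1.14 ± 0.43 SD, n = 6). With pregnancy it ran from -1.90 to -0.39, with a median of -1.65 (mean -1.39 ± 0.58 SD, n = 6). The groups overlapped over most of their range.

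Mare by mare, the SLC5A1 change at day 12 (pregnant minus non-pregnant, log2) was -0.27 in mare 1, -0.91 in mare 2, 1.13 in mare 3, -0.40 in mare 4, -0.61 in mare 5 and -0.46 in mare 6. The transcript was lower in the pregnant sample of 5 of 6 mares and higher in that of mare 3, the highest of the pregnant group, but the fitted change had the other sign, 0.02, under another background correction (normexp), which moved the median of all probes to 0.34. Being lower in all mares, or in all but 1, was a pattern that 19.1% of the probes tested showed. The fitted change was -0.25 ± 0.23 (SE; 95% interval -0.75 to 0.25), with an adjusted p of 0.696 by limma over all probes tested and a p of 0.4375 by the exact two-sided sign-flip test (smallest possible 0.0312). Without mare 3, left out in turn like each other mare, it was -0.53, with a limma adjusted p of 0.103. In that fit 977 probes passed on the whole array, against 102 with all mares.

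At day 8 the SLC5A1 level without pregnancy was -1.79 in mare 1, 0.09 in mare 2, -1.95 in mare 4, -0.71 in mare 5 and -0.77 in mare 6. With pregnancy it was -1.70, -0.80, -1.65, -1.01 and -0.73 in the same mares. Mares 1 and 4 were low in both of their samples, and the sample of mare 2 without pregnancy was the highest of all 22. The change was -0.15 ± 0.25 (SE; 95% interval -0.70 to 0.40), with higher values in 3 mares and lower values in 2; the limma adjusted p was 0.964 and the exact sign-flip p 0.6875 (smallest possible 0.0625). Without mare 2 the change was 0.032. No probe on the array passed the adjusted threshold at day 8 (0% of 38457 by limma, with 2243 probes, 5.83%, at an unadjusted p under 0.05).

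SLC2A4 held the steadiest levels within mares. At day 12 it ran from -2.42 to -1.39 without pregnancy (median -1.61; mean -1.73 ± 0.39 SD, n = 6) and from -2.18 to -1.23 with pregnancy (median -1.56; mean -1.66 ± 0.38 SD, n = 6). Mare 3 had the lowest SLC2A4 level of both groups. The changes were -0.15, -0.17, 0.24, 0.36, 0.22 and -0.06 in mares 1 to 6, so 3 mares were higher with pregnancy and 3 lower. The fitted change was 0.07 ± 0.10 (SE), and its 95% interval of -0.15 to 0.30 corresponds to folds from 0.898 to 1.23; the limma adjusted p was 0.815, where 0.265% of all probes tested passed. With normexp it was 0.33, at the moved median of all probes of 0.34.

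At day 8 the SLC2A4 level without pregnancy was -0.16, -0.91, -0.77, -0.78 and -0.63 in mares 1, 2, 4, 5 and 6. With pregnancy it was -0.50, -1.01, -0.58, -0.50 and -0.41. The low sample of mare 2 stood apart from the other 4 pregnant samples, and was the lower of that mare's pair. The SLC2A4 change at day 8 was 0.05 ± 0.11 (SE; 95% interval -0.20 to 0.30; folds 0.870 to 1.23), higher in 3 mares and lower in 2, with a limma adjusted p of 0.981; without mare 5 it was -0.0083.

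The fructose carrier SLC2A5 is described by probe A_69_P000797, whose signal was the higher of its 2 probes. At day 12 its level ran from -4.49 to -3.34 without pregnancy (median -4.00; mean -3.92 ± 0.50 SD, n = 6) and from -4.79 to -3.11 with pregnancy (median -3.68; mean -3.84 ± 0.58 SD, n = 6). Its changes in mares 1 to 6 were 0.52, -0.34, -0.30, 0.24, 0.79 and -0.42, again 3 up and 3 down. The fitted change was 0.08 ± 0.20 (SE; 95% interval -0.35 to 0.51), with a limma adjusted p of 0.901. It was 0.55 with normexp (limma adjusted p 0.339), 0.21 above the moved median of all probes, and changed sign without mare 1 (-0.0063) or mare 5 (-0.061).

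At day 8 SLC2A5 stood at -3.16, -2.69, -2.83, -1.85 and -2.41 in the non-pregnant samples of mares 1, 2, 4, 5 and 6. In their pregnant samples it stood at -2.71, -2.83, -1.95, -2.28 and -1.78. It was higher with pregnancy in mares 1, 4 and 6 and lower in mares 2 and 5. The change of 0.28 ± 0.22 (SE; 95% interval -0.20 to 0.75) did not pass, with a limma adjusted p of 0.893 and an exact sign-flip p of 0.3125.

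**Figure D2:**
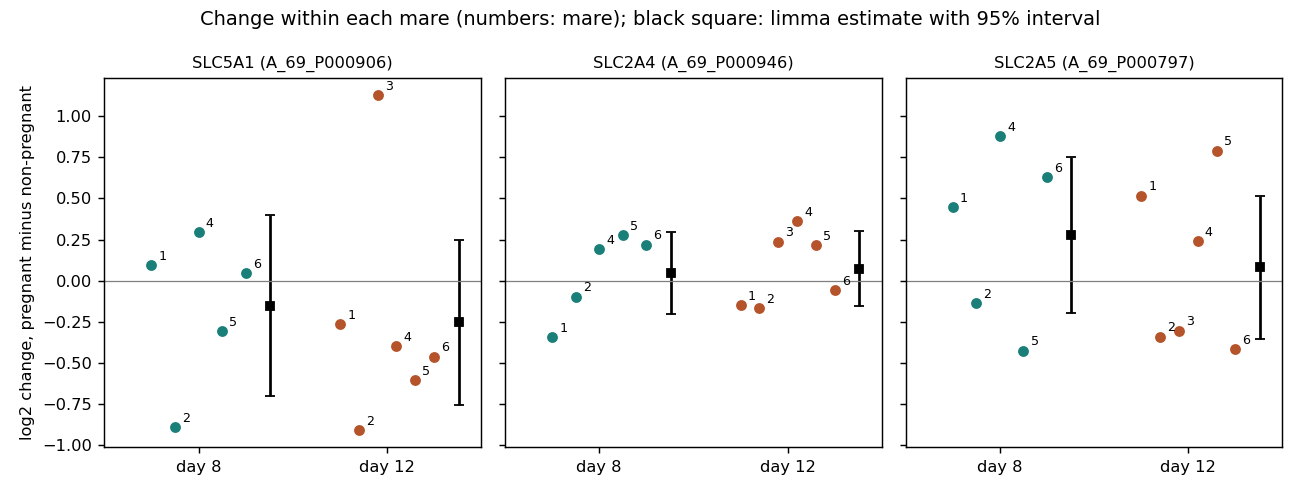
Change within each mare (y axis, log2 of pregnant over non-pregnant; numbers name the mare) at day 8 and day 12 (x axis), with the limma estimate and its 95% interval as a black square and bar. Every interval includes 0; mare 3 is the single SLC5A1 point above 0 at day 12, and the SLC5A1 estimate there, -0.25, was 0.02 with normexp background correction.

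Precision differed between the genes. The residual SD within mares was 0.18 for SLC2A4, 0.34 for SLC2A5 and 0.40 for SLC5A1, against a median of 0.23 over all probes; 81.2% of probes were less variable than SLC5A1 and 29.3% less variable than SLC2A4. The pregnancy change at day 12 minus that at day 8 was -0.10 ± 0.34 (SE) for SLC5A1, 0.02 ± 0.15 for SLC2A4 and -0.20 ± 0.29 for SLC2A5; these had the other sign for SLC5A1 and SLC2A5 with normexp (0.20 and 0.38) and for SLC2A4 with median centring (-0.05). Limma adjusted p-values of these differences were 0.939, 0.970 and 0.836, and 0.0104% of probes passed this test. Normexp and median centring also moved the median of all probes in this comparison, to 0.38 and -0.07. Relative to it SLC5A1 and SLC2A5 were at -0.17 and 0.0031 with normexp, and SLC2A4 at 0.02 with median centring.

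No correlation between the changes of different carriers passed its test. Over the 11 mare and day pairs, the changes of SLC5A1 and SLC2A4 correlated at a Pearson r of 0.29 (Spearman rho 0.21), those of SLC5A1 and SLC2A5 at 0.14 (0.33), and those of SLC2A4 and SLC2A5 at 0.10 (-0.08). Permutation p-values of r were 0.402, 0.698 and 0.752, all 0.752 after Benjamini-Hochberg adjustment over 6 relations between the probes. Without the 2 pairs farthest from the median the same r values were 0.00, 0.51 and 0.13.

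The second question was how each carrier stood on the 2 days. SLC2A4 fell in order from day 8 pregnant (mean -0.60 ± 0.24 SD, n = 5) and day 8 non-pregnant (-0.65 ± 0.29, n = 5) to day 12 pregnant (-1.66) and day 12 non-pregnant (-1.73); the neighbours within a day differed by less than their SD. The highest SLC2A4 level of a day 12 sample, -1.23, was below the lowest of a day 8 sample, -1.01. Without pregnancy, day 12 was lower by 1.08 ± 0.21 on the log2 scale (SE), a 2.12-fold difference (95% interval 1.53 to 2.92). With pregnancy it was lower by 1.06 ± 0.20, 2.08-fold (1.54 to 2.81).

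Both SLC2A4 differences passed, with limma adjusted p-values of 0.0182 and 0.00438 and an exact two-sided label permutation p of 0.00216 in each, the smallest that 6 against 5 samples allow. The differences without and with pregnancy share mares and slides, for SLC2A5 as well, so they are not independent evidence. The permutation treated arrays as exchangeable, though each slide and scan day held 1 day only. Its p therefore does not separate day from these steps. Of all probes tested, 7.09% passed without pregnancy (4.62% lower at day 12) and 24.3% with pregnancy (13.1% lower); groups that do not overlap, with day 12 below day 8, were found for 4.46% and 8.25% of probes. The call without pregnancy was lost with scan day as a random block (-1.09, limma adjusted p 0.102) and without mare 1 (-0.92, 0.0579), 4 (-1.11, 0.0731), 5 (-1.17, 0.0579) or 6 (-1.12, 0.0582). With pregnancy SLC2A4 passed in each of these but not with normexp, which gave -0.66 (limma adjusted p 0.304) and moved the median of all probes to 0.39, so that SLC2A4 lay 1.05 below that median.

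SLC2A5 was ordered in the same way, from day 8 pregnant (mean -2.31 ± 0.46 SD, n = 5) and day 8 non-pregnant (-2.59 ± 0.49, n = 5) to day 12 pregnant (-3.84) and day 12 non-pregnant (-3.92). Neighbours within a day again differed by less than their SD. The groups of the 2 days did not overlap within a pregnancy state: without pregnancy the lowest day 8 level was -3.16 and the highest day 12 level -3.34, and with pregnancy they were -2.83 and -3.11. Such a separation, with day 12 below day 8, was found for 4.46% of probes without and 8.25% with pregnancy. Across states the non-pregnant day 8 sample of mare 1, at -3.16, lay just below the pregnant day 12 sample of mare 4, at -3.11.

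The SLC2A5 difference without pregnancy was a fall by 1.34 ± 0.29 on the log2 scale (SE), or 2.53-fold (95% interval 1.64 to 3.89; limma adjusted p 0.0229; exact label permutation p 0.00216). With pregnancy SLC2A5 fell by 1.53 ± 0.30, or 2.90-fold (1.84 to 4.55; limma adjusted p 0.00517; exact label permutation p 0.00433). Of all probes tested, 7.09% passed without pregnancy (4.62% lower at day 12) and 24.3% with pregnancy (13.1% lower). The SLC2A5 call without pregnancy was lost with slide (-1.32, limma adjusted p 0.0506) or scan day (-1.30, 0.136) as a random block, and without mare 4 (-1.51, 0.0586), 5 (-1.06, 0.0865) or 6 (-1.32, 0.0750). The call with pregnancy was lost with normexp (-0.61, limma adjusted p 0.578; 1.00 below the median of all probes). In the authors' deposited table as it is, all 4 calls were lost, at -0.93 and -0.88 for SLC2A4 (limma adjusted p 0.556 and 0.316) and -1.04 and -1.22 for SLC2A5 (0.438 and 0.0877) without and with pregnancy; with each array of it centred on its median, all 4 passed.

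SLC5A1 did not separate the days. Its group means ran from -1.03 (day 8 non-pregnant, ± 0.84 SD, n = 5) over -1.14 (day 12 non-pregnant) and -1.18 (day 8 pregnant, ± 0.47, n = 5) to -1.39 (day 12 pregnant), each step smaller than the SD of either group. Day 12 minus day 8 was -0.11 ± 0.36 (SE; 95% interval -0.90 to 0.68; limma adjusted p 0.872) without pregnancy, with 0.08 when mare 2 was left out, and -0.21 ± 0.30 (-0.87 to 0.44; 0.626) with pregnancy, with 0.04 under normexp. Normexp moved the median of all probes with pregnancy to 0.39. The 95% intervals still include folds from 0.535 to 1.60 and from 0.548 to 1.36.

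**Figure D3:**
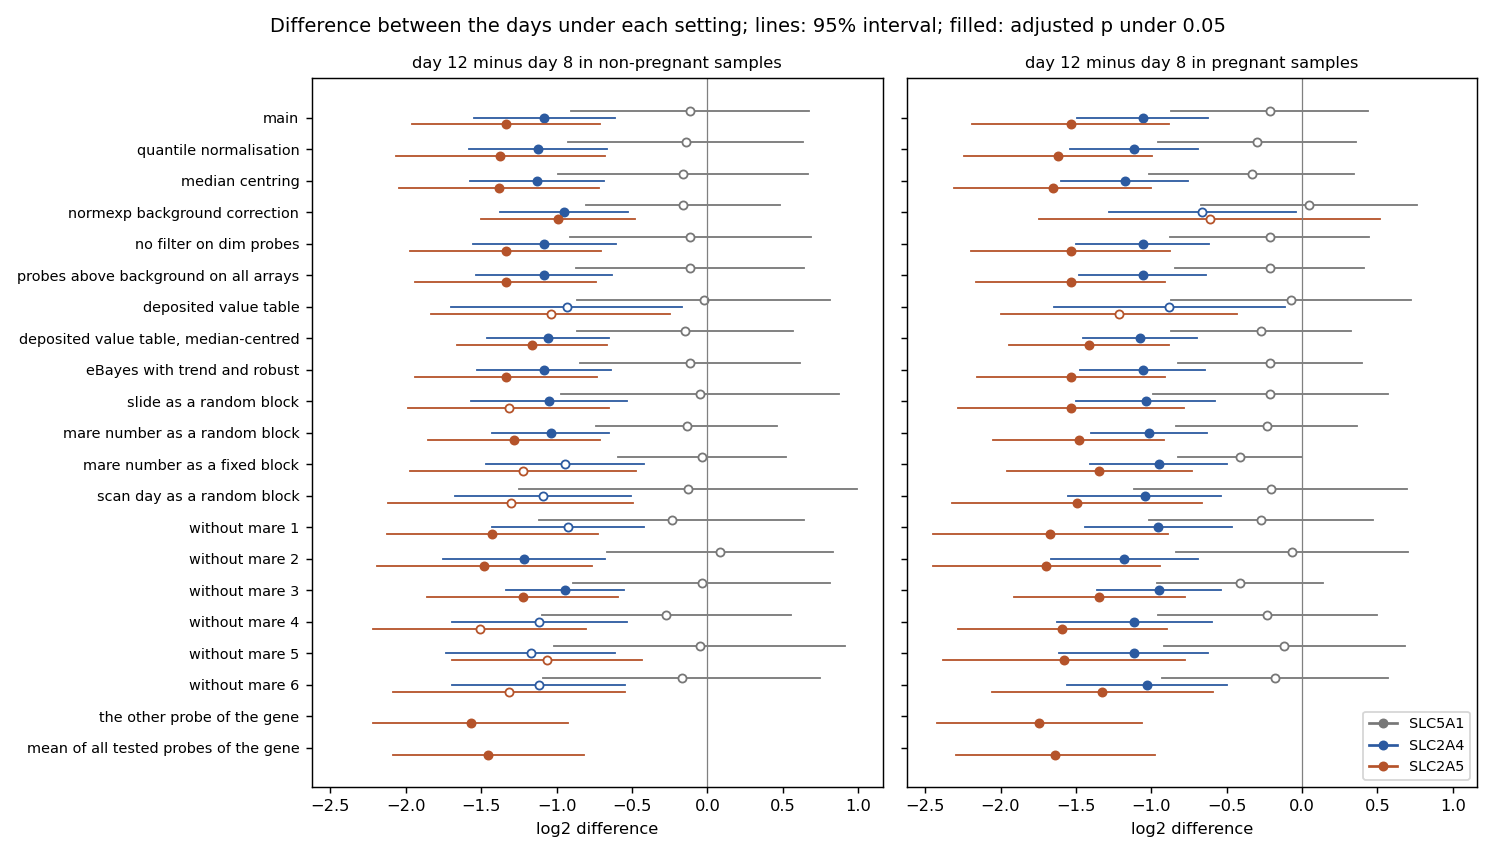
Difference between the days (x axis, log2 of day 12 over day 8) of each gene under each setting (y axis), without pregnancy (left) and with pregnancy (right); bars are 95% intervals and filled points passed an adjusted p of 0.05. SLC2A4 and SLC2A5 lie below 0 in every setting drawn, with open points where the call was lost, while SLC5A1 lies near 0 and above it without mare 2 (left) and with normexp (right).

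Levels also differed between slides of the same day. At day 12 the slide means of SLC2A4 spanned -2.14 to -1.34 and those of SLC2A5 -4.29 to -3.51; at day 8 they spanned -0.68 to -0.58 and -2.85 to -2.08. Each slide mean of SLC2A4 and of SLC2A5 at day 12 was below each of its slide means at day 8. SLC5A1 spread most over the slides of day 8, from -1.80 to -0.81. Both samples of a mare lay on 1 slide, so slide means hold different mares, and the part of the slide in these levels was not tested.

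The 2 probes of SLC2A5 gave the same directions and calls, with a larger day difference by A_69_P000796. Their levels correlated at r = 0.992 over the 22 arrays, and their within-mare changes had the same sign in 11 of 11 pairs. With probe A_69_P000796 the day difference was -1.57 ± 0.30 (SE) without pregnancy (limma adjusted p 0.0151) and -1.74 ± 0.31 with pregnancy (0.00341), and the pregnancy changes were 0.09 at day 12 and 0.26 at day 8, with limma adjusted p-values of 0.895 and 0.907. Probe A_69_P000797 read higher than A_69_P000796 by a mean of 0.31 and 0.30 at day 12 without and with pregnancy. At day 8 this gap was 0.07 and 0.09. Both probes stand for 1 transcript on the same arrays and are not independent evidence.

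**Figure D4:**
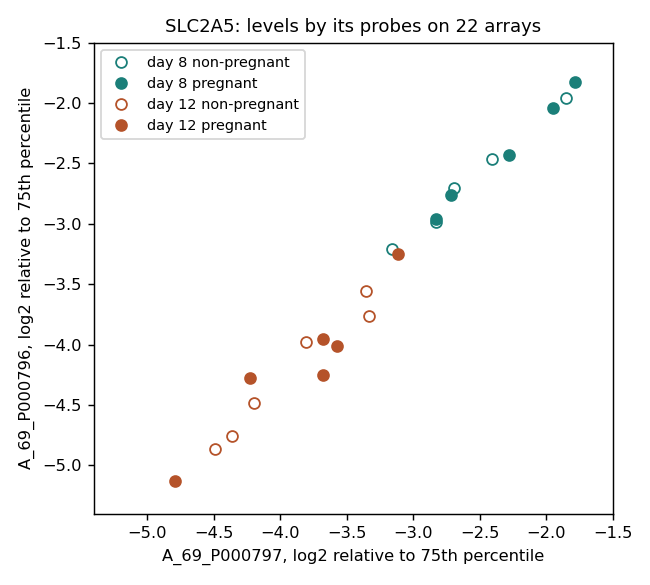
Normalised level of SLC2A5 by probe A_69_P000797 (x axis) and by probe A_69_P000796 (y axis), both as log2 intensity relative to the array's 75th percentile, on 22 arrays marked by day and pregnancy. The points form 1 narrow band (r = 0.992), with the day 12 samples at its lower end.

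Of the other genes of sugar uptake and use, few were named on this array. In 7 lists of transporters and of sugar metabolism, 21 named genes were tested. Among the other facilitative carriers SLC2A2 was the single one named, above background on 4 of 22 arrays and so not tested; no gene of the further sodium-coupled carriers and none of fructose metabolism was tested. With pregnancy 0 of the 21 passed limma's test at either day, with 5 at an unadjusted p under 0.05 at day 12 (12.5% of all probes) and 1 at day 8 (5.83%); the median change was -0.01 and 0.05, against -0.02 and -0.01 over all probes.

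Between the days, 4 of the 21 passed without pregnancy, where 7.09% of all probes did, and 10 with pregnancy, where 24.3% did. Of 8 genes of insulin signalling and SLC2A4 traffic, PRKAB2, a regulatory subunit of the energy sensor AMPK, rose at day 12 by 1.24 and 1.55 without and with pregnancy, while PRKAG3, another AMPK subunit, fell by 0.87 and 1.32. Both passed narrowly without pregnancy (limma adjusted p 0.0484 and 0.0497). RAB10, a small GTPase that takes SLC2A4 vesicles to the membrane, fell by 0.56 with pregnancy. Its difference without pregnancy was -0.30 and did not pass (limma adjusted p 0.339). The test of the RAB10 difference between the states did not pass (limma adjusted p 0.468).

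In the glycolysis list, with 7 genes tested, the lactate carrier SLC16A3 fell by 1.17 without and 1.06 with pregnancy. LDHB, a lactate dehydrogenase subunit, and the lactate carrier SLC16A1 fell by 1.22 and 0.89 with pregnancy. Without pregnancy their differences were -0.76 and -0.69 and did not pass (limma adjusted p 0.164 and 0.0663), and the test of the difference between the states did not pass (0.414 and 0.659). Of 5 glycogen genes, GBE1, the branching enzyme, rose by 0.61 and 0.48 without and with pregnancy, and PYGL, a glycogen phosphorylase, rose by 0.99 with pregnancy. GBE1 passed narrowly without pregnancy (limma adjusted p 0.0460). PYGL without pregnancy differed by 0.34 and did not pass (limma adjusted p 0.228). The test of the PYGL difference between the states did not pass (limma adjusted p 0.267). The median difference over the 21 genes was -0.09 without and -0.21 with pregnancy, against -0.01 and -0.03 over all probes.

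Cell type markers also differed between the days. Of 12 markers tested, 0 passed limma's test without pregnancy (3 at an unadjusted p under 0.05, as were 26.4% of all probes) and 5 passed with pregnancy, where 24.3% of all probes passed: PECAM1 of endothelium was higher at day 12 by 0.92, CD14 of macrophages by 1.01 and TAGLN of smooth muscle by 0.84, while LUM of stroma fell by 0.63 and MYH7, a slow muscle myosin, by 0.87. Without pregnancy these 5 differed in the same direction, PECAM1 by 0.59, CD14 by 0.47, TAGLN by 0.22, LUM by -0.67 and MYH7 by -0.24. The test of the difference between the states passed for none of the 5 (limma adjusted p 0.462 to 0.979). The other 3 macrophage and dendritic cell markers did not pass and had differences below 0 with pregnancy (ITGAX -0.61, CD68 -0.23 and LAPTM5 -0.17). The summed level of the stroma list ran from 3.66 to 4.46 in the pregnant samples of day 12 and from 4.40 to 4.80 in those of day 8, and that of the skeletal muscle list, which MYH7 alone represents, from -2.04 to -0.63 and from -0.96 to -0.25. The epithelial marker ESRP1 differed by -0.05 without and -0.14 with pregnancy and did not pass. No marker of fat cells or neutrophils was named on the array. The part of these markers in the SLC2A4 and SLC2A5 differences was not tested.

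The named genes with the pattern most like each carrier over the 22 arrays were found by Pearson correlation among 597 genes. For SLC2A4 these were GPR137C, OAS3 and MSTN, each at r = 0.97, and 21 genes were above 0.9; within groups, with the group means taken out, the r values were 0.95, 0.91 and 0.87. For SLC2A5 they were RPRD1A at 0.88, HSPA8 at 0.86 and CIAO2A at 0.85, which within groups were 0.51, 0.46 and 0.44. For SLC5A1 they were LOC100054696 at 0.71, DDIT4 at 0.61 and LRRN1 at 0.59, with 0.79, 0.61 and 0.59 within groups. The within-mare changes over the 11 pairs correlated, in the same order, at 0.79, 0.51 and 0.79 for the genes of SLC2A4. For those of SLC2A5 the values were 0.41, 0.53 and 0.59, and for those of SLC5A1 0.69, 0.72 and 0.09. The arrays share slides and mares, so all these correlations are descriptions.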

How the data were processed

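RNA of 22 biopsies was labelled with Cy3, and per the labels' protocols it was hybridised to Agilent horse arrays in 1 colour. The deposited files hold spot intensity values that the authors extracted with Agilent Feature Extraction, version 10.5.1.1 at day 12 and 10.7.3.1 at day 8, per the file headers; the processed signal is already background-corrected, and arrays are not normalised against each other. A deposited value table of log2 intensities (correlation with the scanner's log2 signal 0.986 to 0.997, array medians 7.47 to 8.83, not equalised) served as an alternative; how it was made is not given in the sources used here.

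Here the log2 processed signal minus the array's 75th percentile was used, without 3 to 152 outlier spots per array, and with the spots of a probe averaged. Of 43603 probes, the 38461 well above background on at least 5 of 22 arrays were tested. Arrays give no counts, and their number limits the precision. Symbols came from RefSeq by transcript accession: 1394 probes (675 genes) had 1 symbol, 1 probe had several and 42208 had none; the genome builds could not be matched, so no coordinates or sequences are given. The pregnancy changes came from limma 3.58.1 in R 4.3.3 (lmFit, eBayes) on all arrays with mare within day as a fixed block, since the design pairs 2 samples of each mare. Deviations from the group means correlated within a mare at 0.307 to 0.744 (day 12) and 0.288 to 0.730 (day 8), over 38103 probes. Whether mare numbers pair samples across days is not settled: the labels do not say so, and same-numbered samples correlated at -0.301 to 0.209 without and -0.227 to 0.324 with pregnancy, above 0 for 4 of 5 numbers in each state and below 0 for mare 2. Since not every pair was above 0.1, day 12 minus day 8 was fitted without covariates, separately on the 11 non-pregnant and the 11 pregnant arrays. P-values were Benjamini-Hochberg adjusted over all probes tested, with a threshold of 0.05; 20 exact permutation tests of single values accompany them, not adjusted. The fit of the pregnancy changes was tested on simulated data with known shifts in the day 12 pregnant samples. That simulation did not cover the fit of day 12 minus day 8 and held no slide or scan day differences.

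SLC2A5 is described by 1 of its probes, and genes alike were the 3 with the highest Pearson correlation per carrier. Of the pathway genes, those that passed are named, except some that are not reported here. The members, the gene lists and the alternatives were chosen with earlier results of these data known. Alternatives were another scaling, background correction, filter, moderation, probe and block, the deposited table, and each mare left out.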

Additional observations from a re-analysis of the deposited data

Results flagged for a closer look

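In 2 of 24 sets of levels or within-mare changes of the 4 probes, 1 sample stood farther from the others than Dixon's 95% limit; chance gives such a sample in about 1 of 20 groups. The SLC5A1 change of mare 3 at day 12, 1.13, was above 0 while the other 5 mares were at -0.27 or below. The SLC2A4 level of the pregnant sample of mare 2 at day 8 was -1.01, while the other 4 pregnant samples were at -0.58 or above.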

How the results depend on the processing

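Of 265 values recomputed under alternatives for the 3 genes and 5 comparisons, 233 kept their direction and their side of the threshold, 18 kept the direction but no longer passed, and 14 changed sign; every one that changed sign had not passed, and none came to pass. SLC2A4 and SLC2A5 were lower at day 12 in every alternative run. With normexp, run on the median spot signal, the changes with the other sign were 0.016 (SLC5A1 with pregnancy at day 12), 0.20 and 0.38 (SLC5A1 and SLC2A5, change at day 12 minus that at day 8) and 0.043 (SLC5A1 between days, pregnant). The SLC2A4 and SLC2A5 differences between days in pregnant samples, -0.66 and -0.61, no longer passed with it. With normexp the median of all probes was 0.34 for pregnancy at day 12 and 0.39 between days in pregnant samples. For the change at day 12 minus that at day 8 it was 0.38. Relative to these medians SLC5A1 lay at -0.32, -0.35 and -0.17, and SLC2A5 at 0.0031 in the last. The SLC2A4 change at day 12 minus that at day 8 was -0.049 with median centring and -0.021 in the median-centred deposited table. The median of all probes was -0.070 and -0.066 there. In the deposited table as it is, day 12 minus day 8 did not pass: -0.93 and -0.88 for SLC2A4, -1.04 and -1.22 for SLC2A5, without and with pregnancy; centring each array restored these calls. Without pregnancy the calls were also lost with mare number as a fixed replicate block on the 5 numbers of both days, which leaves out mare 3 (-0.94 for SLC2A4, -1.22 for SLC2A5, limma adjusted p 0.117 and 0.128), with a random block for scan day (-1.09 and -1.30), and for SLC2A5 with 1 for slide (-1.32). Mare number as a random replicate block on all 22 arrays kept both calls (-1.04 and -1.28, limma adjusted p 0.000844 and 0.00289). The centred table, the fixed mare number block and the scan day block were chosen after seeing the data. No pregnancy change of the 3 genes had passed, so leaving out the mare pairing could lose no call, and none came to pass. On the whole array 41 probes passed at day 12 without the pairing, against 102 with it. The causes of these changes were not tested.

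Leaving out each mare in turn gave ranges of -0.26 to 0.032 (SLC5A1, day 8), -0.38 to 0.041 (SLC5A1, day 12 change minus day 8 change), -0.27 to 0.084 (SLC5A1 between days, non-pregnant), -0.0083 to 0.15 (SLC2A4, day 8), -0.029 to 0.093 (SLC2A4, day 12 change minus day 8 change) and -0.061 to 0.18 (SLC2A5, day 12). For the differences between days without pregnancy it gave -1.21 to -0.92 for SLC2A4 (limma adjusted p 0.0226 to 0.0731) and -1.51 to -1.06 for SLC2A5 (0.0336 to 0.0865). Over the alternatives, the probes passing on the whole array numbered 9 to 977 at day 12 (102 as reported), 0 at day 8 throughout, 0 to 33 for the difference of the changes (4), 31 to 7942 between days without pregnancy (2727) and 388 to 12222 with pregnancy (9332). The 977 at day 12 were found without mare 3; with only probes well above background on all arrays 218 passed there.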
